A study of Homo sapiens with 22 samples.

Results

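MBNL1, MBNL2, MBNL3, CELF1, CELF2, RBFOX2, ELAVL1, ELAVL3, PTBP1 and PTBP3 encode RNA-binding proteins of 5 families that regulate splicing and mRNA stability. Their genes are described here in THP-1 cells, a human monocytic leukaemia line, with and without knockdown of QKI5, the nuclear isoform of the splicing regulator QKI. The 10 genes were taken by name from 20037 protein-coding RefSeq genes on chromosomes 1 to 22, X and Y. Chromatin peaks were collected within 1 kb of either outer end of each gene (gene-end peaks) and in its body, and QKI5 CLIP peaks were collected by the gene symbol that the deposited lists give.

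The knockdown cells had been infected with a lentivirus for a hairpin named sh-QKI5, and the control cells with one for sh-control, which the series' design text calls untreated. Chromatin immunoprecipitation (ChIP) was made with antibodies to H3K4me3, a histone mark of active promoters, and to RNA polymerase II (Pol II), and crosslinking immunoprecipitation (CLIP) of RNA with an antibody to QKI5. Each condition had 2 samples for each antibody and 2 CLIP inputs, with 4 ChIP inputs in knockdown and 2 in control, which makes 22 samples. Whether the infected cells were a pool or a clone, and whether the 2 samples of a group came from separate cultures, is not given in the sources used here.

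The replicates of a group were pooled in each of the 6 deposited lists, so the values carry no spread between replicates, and no test of a difference between conditions was possible. Library depth is unknown, since no list gives read totals. H3K4me3 lists held 21358 peaks in knockdown and 21953 in control, Pol II lists 35094 in knockdown and 33370 in control, and CLIP lists 669 in knockdown and 7337 in control. A peak carried by a share of the cells and one carried by all of them cannot be told apart. Of 8 monocytic marker genes, 5 (CD14, SPI1, LYZ, CEBPA and CD33) had gene-end peaks of both H3K4me3 and Pol II in both conditions, while CSF1R, FCGR1A and MPO had no H3K4me3 gene-end peak. H3K4me3 was at a gene end of 1 of 3 markers each for T cells, B cells and fibroblasts, of 0 of 3 each for erythroid and epithelial cells, and of 5 of 5 neuron markers. The lists hold no RNA or protein level, so the knockdown of QKI5 could not be checked.

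Muscleblind-like proteins (MBNL1, MBNL2 and MBNL3) bind pre-mRNA and steer exon choice towards adult patterns, and their loss to repeat RNA underlies myotonic dystrophy. CELF1 and CELF2 often act on the same exons in the opposite direction, and RBFOX2 promotes or represses exons according to the side on which it binds. ELAVL1 (HuR) is a ubiquitous stabiliser of AU-rich mRNAs, whereas ELAVL3 (HuC) is a neuronal relative. PTBP1 represses neuronal exons in non-neuronal cells, and PTBP3 is a relative first described in blood cells. Many of these genes are long and have several alternative promoters, so an outer gene end need not be the promoter in use.

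The bases before 5 transcription starts are shown as examples of marked and unmarked promoters of these genes. They were taken from RefSeq (GRCh38.p14), which had starts for 7 of the 10 genes, 27 starts in all, and are numbered within a gene from its outer 5′ end. Each run is the 250 bases before the start, 5′ to 3′, and capitals mark CG dinucleotides. MBNL2 start 1 lies beside the peak listed in knockdown alone. The 3 CELF2 starts stand for a start with no mark, one with H3K4me3 and no Pol II, and one with both. MBNL3 start 1 is a marked promoter with few CG dinucleotides.
MBNL2 start 1, chr13:97141584-97141833, plus strand: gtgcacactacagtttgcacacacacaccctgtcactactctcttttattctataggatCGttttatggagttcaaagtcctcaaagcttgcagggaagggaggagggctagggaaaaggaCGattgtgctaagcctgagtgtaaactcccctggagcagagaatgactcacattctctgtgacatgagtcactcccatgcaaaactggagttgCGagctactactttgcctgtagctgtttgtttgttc
CELF2 start 1, chr10:10462300-10462549, plus strand: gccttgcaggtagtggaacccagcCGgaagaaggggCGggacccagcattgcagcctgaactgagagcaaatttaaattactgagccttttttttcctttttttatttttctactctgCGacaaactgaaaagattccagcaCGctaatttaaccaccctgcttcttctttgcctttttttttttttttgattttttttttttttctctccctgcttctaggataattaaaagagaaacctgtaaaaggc
CELF2 start 5, chr10:11017622-11017871, plus strand: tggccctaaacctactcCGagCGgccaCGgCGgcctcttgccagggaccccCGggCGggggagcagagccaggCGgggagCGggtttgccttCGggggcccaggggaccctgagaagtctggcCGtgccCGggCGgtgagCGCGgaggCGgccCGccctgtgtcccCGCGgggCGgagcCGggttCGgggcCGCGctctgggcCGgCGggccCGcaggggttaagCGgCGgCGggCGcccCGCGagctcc
CELF2 start 8, chr10:11164631-11164880, plus strand: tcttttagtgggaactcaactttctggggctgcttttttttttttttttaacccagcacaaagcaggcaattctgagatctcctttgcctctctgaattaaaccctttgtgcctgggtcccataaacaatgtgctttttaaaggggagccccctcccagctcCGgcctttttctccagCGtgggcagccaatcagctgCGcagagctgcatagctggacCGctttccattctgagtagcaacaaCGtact
MBNL3 start 1, chrX:132490036-132490285, minus strand: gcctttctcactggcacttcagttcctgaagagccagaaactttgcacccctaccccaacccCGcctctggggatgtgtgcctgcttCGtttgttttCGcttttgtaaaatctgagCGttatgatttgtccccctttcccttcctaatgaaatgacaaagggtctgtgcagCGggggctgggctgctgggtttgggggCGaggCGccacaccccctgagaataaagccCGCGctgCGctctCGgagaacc
MBNL2 start 1 held 3 CG dinucleotides and CELF2 start 1 held 4, while CELF2 start 5 held 32, CELF2 start 8 held 5 and MBNL3 start 1 held 11. Their G and C content was 46.8%, 39.2%, 79.2%, 48.4% and 56.4%, in the order printed. CELF2 start 8, under both marks, was thus close to the unmarked MBNL2 start 1 in both measures.

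H3K4me3 marked a gene end of 7 of the 10 genes in both conditions, of 2 in knockdown alone and of none in control alone, and CELF2 lacked the mark at both gene ends in either list. Across all 20037 genes, 66.6% had such a peak in both lists, 0.779% in knockdown alone, 0.554% in control alone and 32.0% in neither. MBNL2 and ELAVL3 were the 2 genes marked in knockdown alone. Pol II lay at a gene end of 9 of the 10 genes in both conditions, and MBNL2 had none in either. Over all genes the share with Pol II at a gene end was 57.6% for both lists, 3.97% in knockdown alone, 1.91% in control alone and 36.5% in neither. None of the 10 genes had Pol II at a gene end in a single list.

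MBNL1, the most broadly expressed muscleblind gene, had its outer 5′ end on chromosome 3 (files' build GRCh38.p5, as for every peak below) under both marks. Its H3K4me3 peak there spanned chr3:152242153-152248939 (6787 bp) in knockdown and chr3:152241961-152248907 (6947 bp) in control. The Pol II peak was 4203 bp wide in knockdown and 5997 bp in control. The H3K4me3 peak thus kept nearly the same edges, while that of Pol II was narrower in knockdown, with a width ratio (knockdown over control) of 0.701. At the 3′ end a narrow Pol II peak was listed in each condition, in knockdown of the most common width of the ChIP lists, just over 500 bp and called the minimal width below, and in control 637 bp wide. The 2 did not overlap.

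MBNL2 on chromosome 13 is the gene of the family with the fewest peaks. Its H3K4me3 gene-end peak, chr13:97141950-97142878, was 929 bp wide and was listed in knockdown alone. It began 116 bp after MBNL2 start 1, the start whose sequence is printed above, and the nearest control H3K4me3 peak lay 64149 bp away. By width it was the 65th of the 156 genes with an H3K4me3 gene-end peak in knockdown alone, whose median was 802.5 bp and of which 45 had a peak of the minimal width. No Pol II peak came with it, the nearest to that gene end being 64312 bp away in knockdown and 64281 bp in control. Another H3K4me3 peak, 227 kb into the gene, was listed in both conditions and was 887 bp wide in knockdown and 914 bp in control.

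MBNL3, a muscleblind gene best known from proliferating and undifferentiated cells, had both marks at its 5′ end on chromosome X in both conditions. The H3K4me3 peak was chrX:132486890-132491458 (4569 bp) in knockdown and chrX:132487277-132491567 (4291 bp) in control. The Pol II peak inside it was 1941 bp wide in knockdown and 1994 bp in control. Both ratios were close to 1, at 1.06 for H3K4me3 and 0.973 for Pol II. A small H3K4me3 peak about 9 kb into the gene was also shared, 771 bp wide in knockdown and of the minimal width in control.

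CELF1, a regulator of splicing, translation and mRNA decay, had both marks at 2 promoters on chromosome 11 in both conditions. At the outer 5′ end the H3K4me3 peak was chr11:47563912-47568228 (4317 bp) in knockdown and chr11:47563621-47567944 (4324 bp) in control. The Pol II peak there was 1402 bp wide in knockdown and 2330 bp in control, a ratio of 0.602, the lowest of the 9 genes with Pol II. That end lies within 1 kb of an end of PTPMT1, so a peak there may belong to either gene. The second promoter, at CELF1 start 2, 12.4 kb further in, had an H3K4me3 peak of 3348 bp in knockdown and 3387 bp in control. Its Pol II peak measured 2340 bp in knockdown and 2245 bp in control, so the inner promoter did not share the narrower Pol II peak of the outer one.

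CELF2, a relative of CELF1 that is abundant in blood cells, had no H3K4me3 within 1 kb of either outer end on chromosome 10. Its Pol II gene-end peak lay at the 3′ end, chr10:11334042-11339912 (5871 bp) in knockdown and chr10:11334465-11339264 (4800 bp) in control. The marked promoters of CELF2 were inside the gene and are described with its body below.

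RBFOX2, the RBFOX gene of broadest expression, had both marks at the outer 5′ end on chromosome 22 and no other ChIP peak in its 290 kb. The H3K4me3 peak was chr22:36026795-36030463 (3669 bp) in knockdown and chr22:36025738-36030286 (4549 bp) in control. The ratio of 0.807 was the lowest of the 7 genes with H3K4me3 in both lists. Pol II covered 1668 bp in knockdown and 1459 bp in control, a ratio of 1.14, so the 2 marks differed in direction.

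ELAVL1 on chromosome 19 showed the same opposite directions. Its H3K4me3 peak at the 5′ end was chr19:8001727-8007106 (5380 bp) in knockdown and chr19:8001103-8007154 (6052 bp) in control. The Pol II peak at that end was 2671 bp wide in knockdown and 1698 bp in control, ratios of 0.889 for H3K4me3 and 1.57 for Pol II. A further RefSeq gene, LOC105372266, also ends within 1 kb of these peaks.

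ELAVL3, on the same chromosome, had its H3K4me3 peak, chr19:11478816-11480460, in knockdown alone. It was 1645 bp wide, 31st by width of the 156 genes marked in knockdown alone, lay inside the gene 586 bp from its upper end, and had no control H3K4me3 peak within 23634 bp. A Pol II peak of 973 bp, also in the knockdown list, lay 1113 bp beyond that end, just outside the 1 kb window, and the nearest control Pol II peak was 23980 bp from the end. Pol II at the opposite, lower end was listed in both conditions, with 1 peak of 1058 bp in knockdown, and 1 peak of 775 bp and 1 of the minimal width in control. The lower end is within 1 kb of PRKCSH, and the strand of ELAVL3 is not given in the tables used here, so its 5′ end was not assigned.

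The 5 neuron markers with H3K4me3 in both conditions were MAP2, STMN2, TUBB3, SNAP25 and SYP. Pol II was at 2 of them, TUBB3 and SYP, in both, and at SNAP25 in knockdown alone. Whether the ELAVL3 peak goes with these markers was not tested.

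The states of MBNL2 and ELAVL3 in the 4 ChIP lists were shared by other genes. For MBNL2, with H3K4me3 in knockdown alone and no Pol II gene-end peak, 93 other genes had the same states. The 5 nearest to it in width of the knockdown H3K4me3 peak were TLX1 (930 bp), ADAMTS12 (922 bp), CIDEA (937 bp), TP53TG5 (945 bp) and KCNJ10 (892 bp). For ELAVL3, with H3K4me3 in knockdown alone and Pol II in both lists, 35 other genes did, the nearest by width being FAM78A (1576 bp), PPL (1331 bp), CCDC116 (1319 bp), PLCG2 (1287 bp) and C3orf62 (1229 bp).

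PTBP1, a short gene of 14.9 kb on chromosome 19, was under Pol II along nearly all its length. A single control Pol II peak, 23099 bp wide, spanned the whole gene, where the knockdown list had 2 peaks of 5556 and 16401 bp with a gap of under 1 kb between them. Covered gene length was 96.3% in knockdown and 100% in control. The H3K4me3 peak at the 5′ end was chr19:795038-803111 (8074 bp) in knockdown and chr19:795074-803799 (8726 bp) in control, a ratio of 0.925. An end of PLPPR3 lies within 1 kb of the Pol II peaks that reach the 3′ end of PTBP1.

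PTBP3 on chromosome 9 had both marks at its outer 5′ end and at an inner promoter, in both conditions. The 1 PTBP3 start listed in RefSeq is that of the inner promoter. The outer H3K4me3 peak was chr9:112376967-112382657 (5691 bp) in knockdown and chr9:112376714-112382347 (5634 bp) in control. The outer Pol II peak was 3233 bp wide in knockdown and 1939 bp in control, and its ratio of 1.67 was the highest of the 9. An end of HSDL2 lies within 1 kb of the outer peaks of both marks, so they may belong to either gene. At the inner promoter, 46.9 kb from the outer 5′ end, H3K4me3 covered 5181 bp in knockdown and 5212 bp in control. Pol II there covered 4003 bp in knockdown and 3317 bp in control, so at PTBP3 both Pol II peaks were wider in knockdown.

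**Figure D1:**
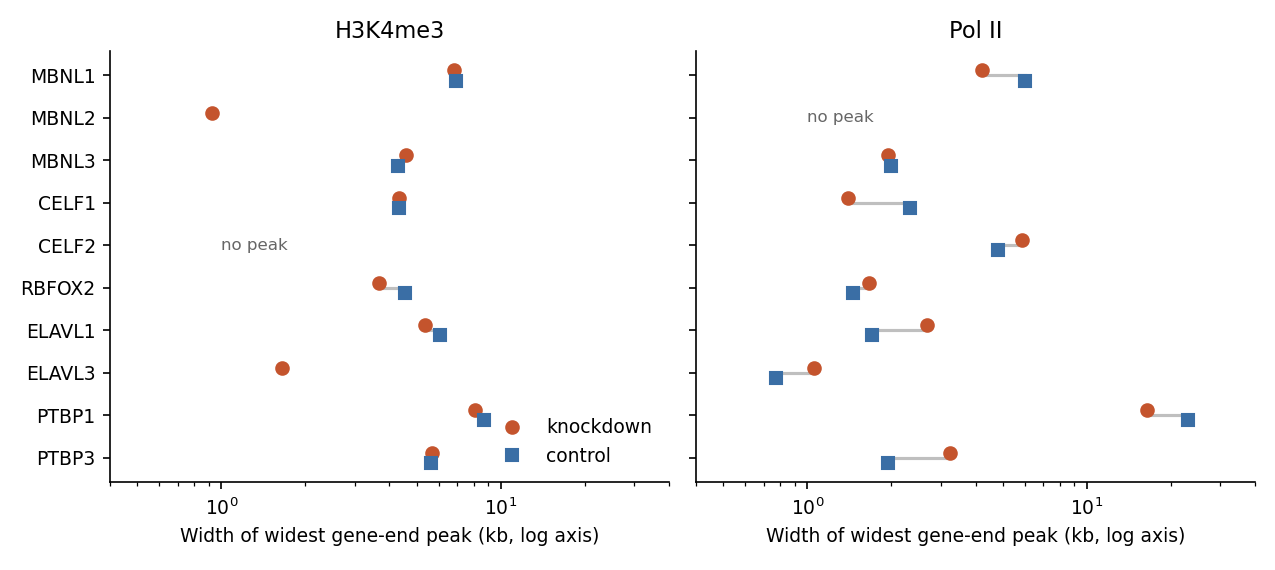
Width in kb (log axis) of the widest H3K4me3 (left) and Pol II (right) gene-end peak of each of the 10 genes, with knockdown as circles and control as squares, 1 pooled list each. H3K4me3 pairs lie close together, MBNL2 (929 bp) and ELAVL3 (1645 bp) have a knockdown circle alone, and Pol II pairs lie further apart, with ratios of 0.602 at CELF1 to 1.67 at PTBP3.

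The widths as a group followed those of all genes. Over the 7 genes with H3K4me3 in both lists the median ratio was 0.977 (0.807 to 1.06), with 2 above 1 and 5 below, beside a median of 0.974 over 13350 genes, whose central 90% ran from 0.738 to 1.30. For Pol II the median over 9 genes was 1.14 (0.602 to 1.67), with 5 above 1 and 4 below, beside 1.05 over 11551 genes and a central range of 0.548 to 2.25. Over these backgrounds the ratio was above 1 at 41.9% of genes for H3K4me3 and at 56.8% for Pol II. Narrower H3K4me3 and wider Pol II, as at RBFOX2 and ELAVL1, thus went the way of both medians. With the widths of all Pol II gene-end peaks of a gene summed, the median over the 9 genes was 0.973, below 1. With Pol II peaks under 1 kb apart joined, the ratio was 0.356 in place of 0.602 at CELF1, 0.322 in place of 1.37 at ELAVL3 and 2.48 in place of 0.710 at PTBP1, so the direction at ELAVL3 and PTBP1 turned. With peaks as listed, no ratio of the 10 genes lay outside the central range of all genes, as the plot of gene-end widths shows for each gene.

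Inside the genes, 2 of the 10, MBNL1 and CELF2, stood apart in base pairs under peaks, though not in share of gene length. MBNL1 had more base pairs under H3K4me3 than any other of the 20037 genes, 65892 bp in knockdown and 74766 bp in control. The second gene had 56174 bp in knockdown and 67298 bp in control. MBNL1 also had the most under Pol II, 91096 bp in knockdown and 114446 bp in control, where the second gene had 90851 bp in knockdown and 113781 bp in control. With peaks under 1 kb apart joined, its control Pol II came second, with 121899 bp. As shares of the 222 kb of MBNL1, H3K4me3 covered 29.7% in knockdown and 33.7% in control. Pol II covered 41.0% in knockdown and 51.5% in control. By share of length PTBP1, the shortest of the 10 genes, exceeded MBNL1 for both marks. H3K4me3 covered 38.1% of PTBP1 in knockdown and 42.7% in control, and Pol II 96.3% in knockdown and 100% in control.

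CELF2, the longest of the 10 genes at 874 kb, ranked 31st in knockdown (19606 bp) and 39th in control (20315 bp) by length under H3K4me3. Under Pol II it ranked 33rd in knockdown (34245 bp) and 30th in control (39419 bp). Long genes have more room for peaks, and these lengths are not corrected for it: CELF2 had 2.24% of its length under H3K4me3 in knockdown and 2.32% in control.

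Each of the other 8 genes had under 10 kb of H3K4me3, PTBP3 having the most with 8097 bp in knockdown and 8381 bp in control. MBNL2 and ELAVL3 had the least, MBNL2 with 1816 bp in knockdown and 914 bp in control, and ELAVL3 with 1645 bp in knockdown and 0 bp in control. Pol II over these 8 genes ranged, in knockdown, from 0 bp at MBNL2 to 14318 bp at PTBP1 and, in control, from 0 bp at MBNL2 to 14861 bp at PTBP1.

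**Figure D2:**
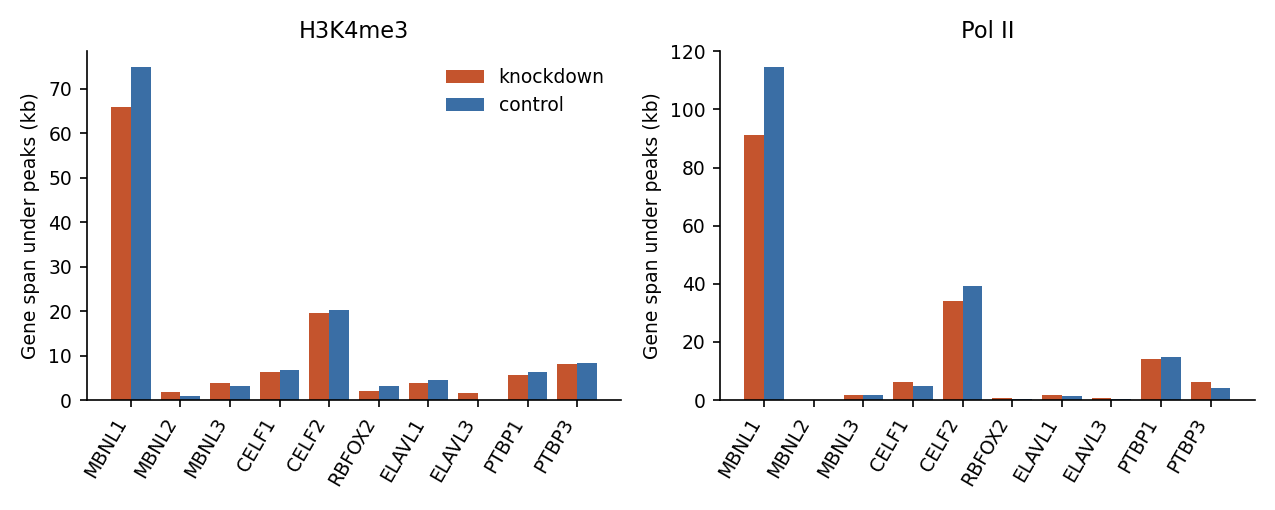
Length in kb of each gene's span under H3K4me3 peaks (left) and Pol II peaks (right), knockdown bars left of control bars, 1 pooled list each. MBNL1 is the tallest for both, with 65892 bp in knockdown and 74766 bp in control for H3K4me3, and CELF2 follows.

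MBNL1 had less of its span covered in knockdown than in control, by ratios of 0.881 for H3K4me3 and 0.796 for Pol II. Among 256 genes with at least 10000 bp under control H3K4me3, the median ratio was 0.915 (central 90% 0.723 to 1.09), and among 600 such genes for Pol II it was 0.935 (0.585 to 1.31). These genes were chosen by their control coverage. Over all 14255 genes with any coverage in both, the H3K4me3 median was 0.979, and over 12424 genes the Pol II median was 1.04. CELF2 had ratios of 0.965 for H3K4me3 and 0.869 for Pol II, both nearer to 1 than those of MBNL1. With peaks under 1 kb apart joined, the H3K4me3 ratio of CELF2 was 1.06, above 1.

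In place the H3K4me3 of MBNL1 was nearly the same in both conditions. Of the base pairs under H3K4me3 in either list, 84.8% were under it in both, beside a median of 85.6% over all genes. For Pol II the shared part was 56.4%, beside 55.2%. CELF2 shared 86.2% for H3K4me3 and 42.1% for Pol II, so its Pol II peaks coincided less.

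The H3K4me3 of MBNL1 formed 3 broad domains in the first 88 kb of the gene. The first was a single control peak of 26272 bp, chr3:152263624-152289895, the 8th widest of its list, and it held RefSeq starts 1 and 2, 25.3 and 25.5 kb from the outer end. In knockdown the same stretch was listed mainly as 2 peaks, of 16432 and 6572 bp, chr3:152264945-152281376 and chr3:152281989-152288560. The break between these 2 knockdown peaks was under 1 kb long.

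The second domain, over start 3 at 55.4 kb, was chr3:152295197-152309943 (14747 bp) in knockdown and chr3:152295342-152310120 (14779 bp) in control. The third was listed as 8906 bp, chr3:152316503-152325408, in knockdown, with a further peak of 3312 bp after it, and as 13018 bp, chr3:152316467-152329484, in control. Edges of the second domain thus moved by under 200 bp, while the third was again a single peak in control and divided in knockdown.

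Pol II over MBNL1 was divided in the same way. Its widest control peak, chr3:152250810-152286258, was 35449 bp and the 10th widest of its list, and the widest knockdown peak, chr3:152263107-152285360, was 22254 bp and the 44th. Over the second domain Pol II was listed as 9902 bp, chr3:152295813-152305714, in knockdown and as 19522 bp, chr3:152291685-152311206, in control. Within the span of that control peak the knockdown list also had peaks of 3275 bp before and 1580 bp after the one of 9902 bp. Beyond 88 kb, where a single further H3K4me3 peak was listed in each condition, Pol II went on as scattered short peaks to about 200 kb. Counting peaks over 1 kb from both ends, MBNL1 had 41 Pol II peaks in knockdown, 32 of which overlapped a control peak, and 31 in control, 19 of which overlapped a knockdown peak. For H3K4me3 it had 12 in knockdown, all overlapping a control peak, and 10 in control, 8 of which overlapped a knockdown peak.

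**Figure D3:**
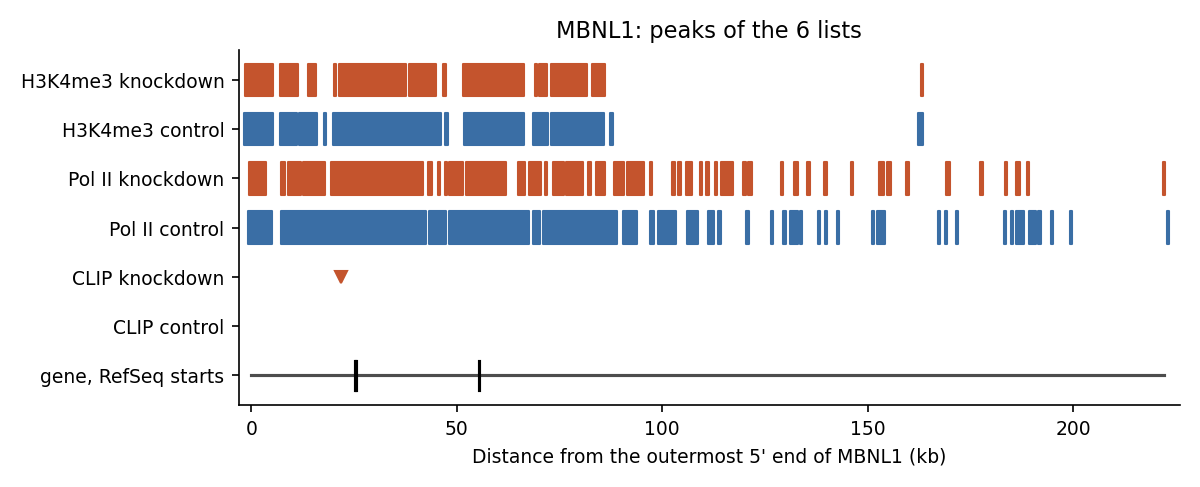
Peaks of the 6 lists along MBNL1, by distance in kb from its outer 5′ end, with knockdown above control for each assay, triangles for CLIP peaks and ticks for RefSeq starts; short peaks are drawn with a minimum line width. Broad H3K4me3 and Pol II domains fill the first 88 kb in both conditions, in more and shorter pieces in knockdown, and 1 CLIP peak is listed, at 21.7 kb in knockdown.

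CELF2 carried its marks far from its outer 5′ end, at inner promoters. RefSeq starts 5 to 7, which lie 555 to 556 kb from the outer 5′ end, were under an H3K4me3 peak, chr10:11016998-11019613 (2616 bp) in knockdown and chr10:11016657-11019739 (3083 bp) in control. No Pol II peak was listed there in either condition. Starts 8 to 10, 702.3 to 702.5 kb from the outer end, were under both marks in both conditions.

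At starts 8 to 10 of CELF2 the H3K4me3 peak was chr10:11163581-11173525 (9945 bp) in knockdown and chr10:11163452-11177049 (13598 bp) in control. By width it was 186th in the knockdown list and 82nd in the control list. A second knockdown peak of 3132 bp followed it, so that the stretch ended at nearly the same place. Pol II was listed there as 10284 and 8050 bp in knockdown and as 13680 and 3391 bp in control, again with the break at another place.

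Another H3K4me3 peak of CELF2, near the 3′ end, was shared too, with 1699 bp in knockdown and 1565 bp in control. Between 720 kb and the 3′ end, Pol II formed mostly short peaks, some overlapping a peak of the other list and some not. Over the gene body, 18 Pol II peaks were listed in knockdown, of which 9 overlapped a control peak and 8 were of the minimal width. In control there were 24, of which 7 overlapped a knockdown peak and 10 were of the minimal width. The share of body peaks overlapping the other list over all genes is not given here. The overlap counts of CELF2 and MBNL1 therefore do not set these genes apart. Starts 1 to 4, up to 543 kb, had neither mark.

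**Figure D4:**
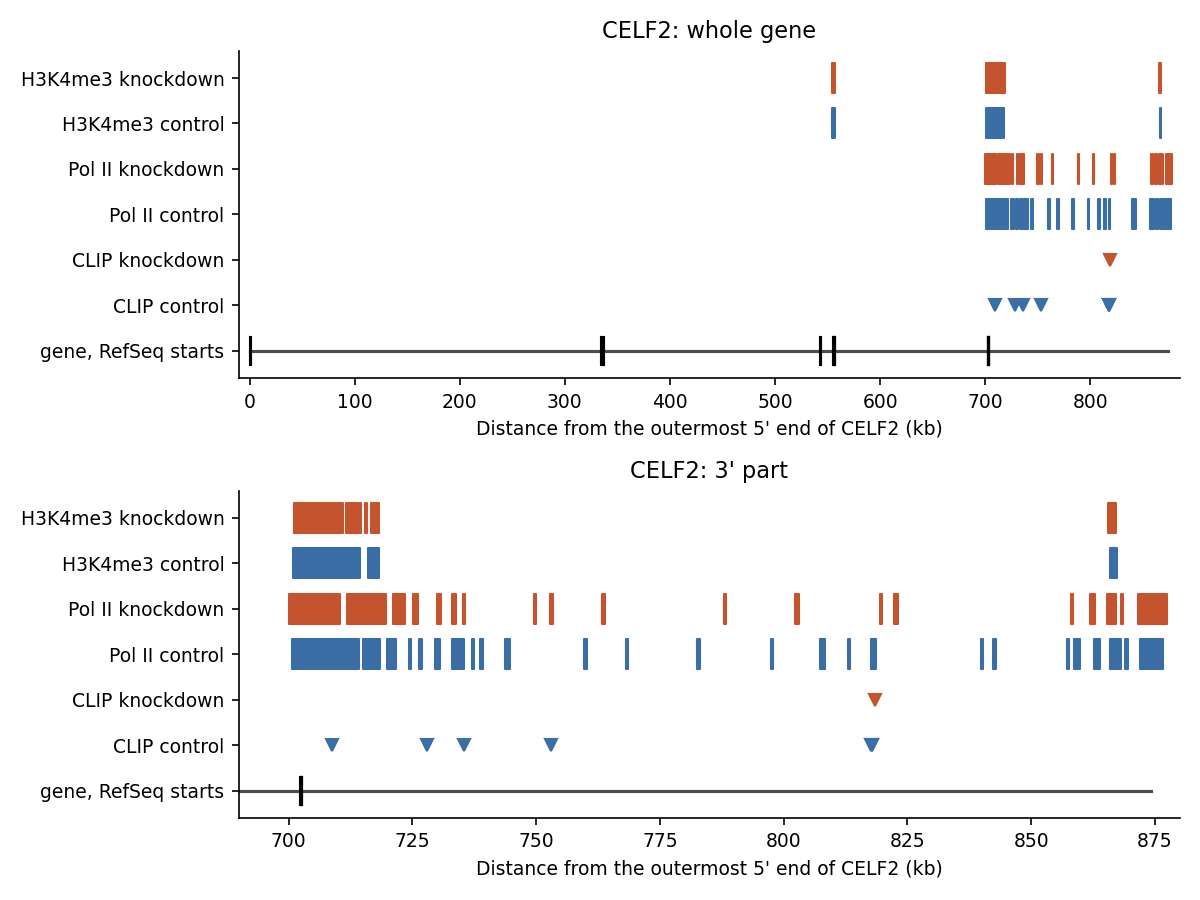
Peaks of the 6 lists along the whole of CELF2 (above) and its 3′ stretch (below), by distance in kb from its outer 5′ end, knockdown above control, triangles for CLIP peaks and ticks for RefSeq starts; short peaks are drawn with a minimum line width. H3K4me3 without Pol II stands at 555 kb, both marks stand at 702 kb, and the CLIP peaks of both conditions lie 3′ of that second promoter.

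All 10 genes together had 23 H3K4me3 body peaks in knockdown and 20 in control, but 16 in knockdown and 17 in control with peaks under 1 kb apart joined. They had 66 Pol II body peaks in knockdown and 61 in control. MBNL1 and CELF2 held most of the Pol II body peaks, as given above. CELF1 followed with 6 in knockdown and 4 in control, of which 2 in each list overlapped, at its inner promoter and close to the outer one. MBNL2, MBNL3, RBFOX2, ELAVL3 and PTBP1 had no Pol II body peak in either list, PTBP3 had 1 in each, and ELAVL1 had 1, of the minimal width, in control.

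At the scale of single starts, the windows were 300 bp long, from 250 bases before a start to 50 after it. Of the 27 windows of MBNL1, MBNL2, MBNL3, CELF1, CELF2, PTBP1 and PTBP3, 16 lay on an H3K4me3 peak in both conditions and none in a single condition. Of 35116 windows in RefSeq, 49.9% did in both, 0.777% in knockdown alone, 0.538% in control alone and 48.7% in neither. These windows carry 27305 gene symbols, so they are not limited to the 20037 protein-coding genes. Pol II lay on 13 of the 27 in both conditions and on none in a single one, beside 40.4% of all windows for both, 3.20% for knockdown alone, 1.46% for control alone and 54.9% for neither. Neighbouring starts of a gene share a peak, as starts 5 to 7 of CELF2 do, so the 27 windows are not independent. The MBNL2 peak of the knockdown list begins after the window of start 1 and so is not counted here.

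The 3 windows with H3K4me3 in both lists and no Pol II in either were starts 5 to 7 of CELF2. Over all windows 6.77% had that combination, and 39.6% had both marks in both lists. The 11 windows with no mark were both of MBNL2, starts 3 and 4 of MBNL3, starts 3 to 5 of CELF1 and starts 1 to 4 of CELF2. Each of these 4 genes therefore has listed starts that carried no peak in either condition, and in MBNL2 these are all of them.

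CG dinucleotides before the starts differed with the marks over all RefSeq windows. The 250 bases before a start held a median of 22 where H3K4me3 was in both lists and 3 where there was none. The median was 8 for knockdown alone and 5 for control alone. The 2 MBNL2 starts, with 3 and 4, lie at the level of unmarked starts. CELF1 starts 1 and 2, both marked, held 38 and 32, and its 3 unmarked starts held 1 each. PTBP1 starts 1 and 2 held 26 and 50, and the inner PTBP3 start held 32.

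Starts of MBNL1 and CELF2 did not follow that order throughout. MBNL1 starts 1, 2 and 3, all under both marks, held 30, 12 and 4. CELF2 starts 5, 6 and 7, with H3K4me3 and no Pol II, held 32, 44 and 42. CELF2 starts 8, 9 and 10, with both marks, held 5, 9 and 9, fewer than the 13 of its unmarked start 3. The letters GGGCGG, which contain a CG and were searched on both strands, occurred at least once at 12 of the 27 starts (44.4%) and at 42.6% of all starts, with 4, 2 and 5 matches at CELF2 starts 5, 6 and 7 and 1 at its unmarked start 1. TATAAA, also on both strands, was found at CELF2 start 2 and at MBNL3 starts 2 and 3, and at 10.7% of all starts. These matches describe letters in a window and name no bound factor.

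**Figure D5:**
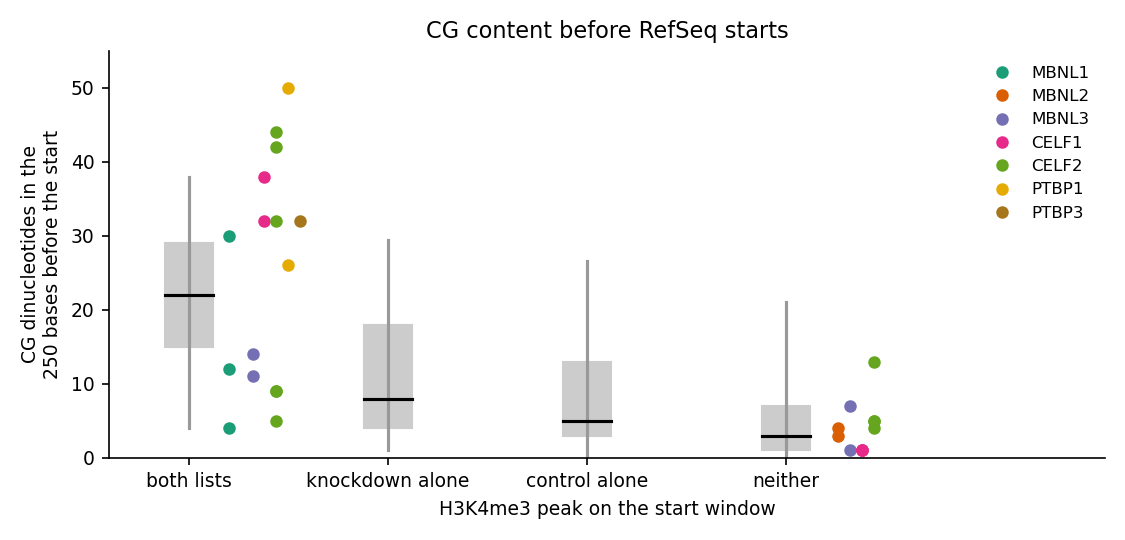
Number of CG dinucleotides in the 250 bases before each RefSeq start, by whether an H3K4me3 peak lay on the start window, for all 35116 windows (line: median, box: central 50%, whisker: central 90%) and for the 27 windows of 7 genes (points, some at the same value). CELF2 points are spread widely in the marked group, with 44 at start 6 and 5 at start 8, and the 2 MBNL2 points are in the group with no peak.

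QKI5 CLIP asks which RNAs came down with QKI5. The 10 genes had 3 CLIP peaks in the knockdown list and 14 in the control list, which is 0.448% of the 669 knockdown peaks and 0.191% of the 7337 control peaks. With the control list limited by -log10 p to the length of the knockdown list, they had 3 in knockdown and 2 in control. MBNL1 had a CLIP peak in knockdown alone, MBNL2, MBNL3 and ELAVL1 in control alone, and CELF2 and RBFOX2 in both. Among all 20037 genes, 0.828% had one in knockdown alone, 12.3% in control alone and 0.923% in both. CELF1, ELAVL3, PTBP1 and PTBP3 had none in either list. The read numbers, log2 enrichments and -log10 p of these peaks are the authors' values per peak and were used only to describe them.

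CELF2 had the most, 7 control peaks that join into 5 sites, against a median of 2 peaks over the 2648 protein-coding genes with a control CLIP peak, and it was 46th among them. Per 100 kb of gene it had 0.801, against a median of 2.76. The strongest by enrichment, chr10:11198033-11198132 on the plus strand, had 11 reads and was enriched by 7.38 on the log2 scale, at a -log10 p of 12.2. Next to it in place were chr10:11190611-11190700 (8 reads, log2 5.34) and chr10:11215590-11215646 (9 reads, log2 6.09). The site nearest to the promoter of start 8, chr10:11171323-11171414, had 13 reads and a log2 enrichment of 3.30, and was the only one of the 7 on an H3K4me3 peak of control cells. The site of 3 adjoining peaks, chr10:11280244-11280384, had 13, 11 and 11 reads.

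The single knockdown peak of CELF2, chr10:11280989-11281059, had 8 reads and was enriched by 4.49 on the log2 scale, at a -log10 p of 7.28. It lay 605 bp from that 3-peak control site, and no CELF2 peak of one list overlapped a peak of the other. All 8 CELF2 peaks were 709 to 818 kb from the outer 5′ end, 3′ of start 8, as the map of CELF2 shows.

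RBFOX2 carried 1 knockdown peak, chr22:35850188-35850300 on the minus strand, at 9 reads and a -log10 p of 11.2, enriched by 6.53 on the log2 scale. Its 2 control peaks adjoined each other at chr22:35936051-35936150, with 8 reads each and log2 enrichments of 5.34 and 6.92. The knockdown site was 85751 bp from the control site, so the gene was in both lists through different sites. How many of all knockdown CLIP peaks overlap a control peak is not given here. Whether such differing sites are particular to RBFOX2 and CELF2 therefore cannot be judged.

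MBNL1 had its only CLIP peak in the knockdown list, chr3:152265380-152265462 on the plus strand. It rested on 6 reads and was enriched by 6.53 on the log2 scale, at a -log10 p of 7.60. Its read number is the lowest in that list. The site lay 21.7 kb from the outer 5′ end, before start 1, and under the broad H3K4me3 and Pol II domains of both conditions. A RefSeq entry named MBNL1-AS1 spans it as well.

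MBNL2 carried 1 control peak, chr13:97337414-97337503 on the plus strand. It rested on 12 reads and was enriched by 6.51 on the log2 scale, at a -log10 p of 12.6, the highest of the 14 control peaks. The nearest Pol II peak was 95142 bp away in knockdown and 95189 bp in control. MBNL3 carried 2 adjoining control peaks at chrX:132378175-132378242 on the minus strand, with 9 reads each, 8.86 kb from the 3′ end of the gene, where RAP2C-AS1 also lies.

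The 2 control peaks that the list assigns to ELAVL1, chr19:8269744-8269804 on the minus strand, had 7 reads each and a log2 enrichment of 6.73. They lay 264103 bp outside the RefSeq span of ELAVL1, and the nearest protein-coding gene was CERS4, 7323 bp away. By position, then, no CLIP peak fell in ELAVL1, and the control count for the 10 genes was 12 in place of 14. The strand of ELAVL1 used above was that of these peaks.

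Every one of these sites rested on few reads, 6 to 9 in knockdown and 7 to 13 in control, near the list medians of 8 in knockdown and 9 in control. Linear enrichment equalled reads over a whole number times a constant, 30.9 in knockdown and 15.2 in control, for 95.1% of knockdown and 98.9% of control peaks, the number being whole within 0.001. It was read as background reads, an inference that no source states. This number ran from 2 to 11 for the 3 knockdown peaks and from 1 to 20 for the 14 control peaks. A site missing from a list is not shown to be unbound.

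The CLIP peaks of these genes were also set against the chromatin peaks of their own condition. In knockdown 1 of 3 lay on an H3K4me3 peak and 1 on a Pol II peak, the MBNL1 site in both cases. In control 1 of 14 lay on H3K4me3 and 4 of 14 on Pol II. All 4 were in CELF2, and 3 of them were the adjoining peaks of 1 site. Of all knockdown CLIP peaks 17.4% (14.6 to 20.6%) lay on H3K4me3 and 18.3% (15.4 to 21.5%) on Pol II, and of all control CLIP peaks 13.1% (12.3 to 13.9%) lay on H3K4me3 and 13.2% (12.5 to 14.0%) on Pol II. These are exact Clopper-Pearson 95% intervals and cover counting error only. They treat the peaks as independent, although adjoining peaks of 1 site are listed apart.

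The other 9 genes of the 5 families mostly had no mark at their outer ends. H3K4me3 was at a gene end of 3 of them in both conditions, CELF5, CELF6 and PTBP2, which are named after their values were seen, and at none in a single condition. Anywhere in the gene span, 6 of the 9 had H3K4me3 in both conditions. Pol II was at PTBP2, the neuronal PTB protein, in both conditions and at RBFOX3 in knockdown alone, where the peak had the minimal width. In the gene span, 3 of the 9 had Pol II in both conditions and 2 in a single one. Of all 20037 genes, 14255 had H3K4me3 in the span in both conditions and 12424 had Pol II. At a gene end the shares were 66.6% for H3K4me3 and 57.6% for Pol II. None of the 9 had a CLIP peak in either list.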

How the data were processed

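ChIP and CLIP peaks of THP-1 cells were compared between QKI5 knockdown and control, the groups being taken from the sample titles. The 6 lists were made by the authors from 2 replicates each, per the series' design text, and the submitters' processing notes name HOMER and GRCh38.p5 without a role. Which aligner and peak caller were used, and how inputs entered, is not given in the sources used here. Every ChIP peak has a deposited score of 1, so peaks were described by width. The CLIP lists have no header. From their values, the columns deposited by the authors were read as the -log10 p-value and the log2 enrichment of each peak, beside a read number and a symbol.

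BED starts were turned into 1-based positions. A peak belonged to a gene when it overlapped the gene or lay within 1 kb of an end. The widest peak within 1 kb of an end gave the gene-end width. Body peaks lay inside the gene and over 1 kb from both ends. Peaks of 2 lists were shared when they overlapped by at least 1 bp, for CLIP on the same strand. Gene spans were read from RefSeq on GRCh38.p14, a later patch release, and only their lengths are printed. Strand came from the RefSeq start table or the CLIP lists. Percentages over all genes or start windows describe the background and test nothing. Python 3.11.15, pandas 2.3.3 and numpy 2.4.6 were used, and the assignment of states was tested on simulated data.

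The 10 genes, the paralogues, the further splicing regulators and the markers were chosen with earlier results of these data known. All 10 genes are named whatever their values. Other regulators are named where their state differs between the 2 lists of an assay or a CLIP list holds them, and genes alike to MBNL2 and ELAVL3 by equal states in 4 ChIP lists and nearest width. Sequence at the CLIP sites, exons and introns were not analysed here. Alternatives are given in the closing section.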

Additional observations from a re-analysis of the deposited data

How the results depend on the processing

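Of the counts and median width ratios that describe the 10 genes, 63 values under other settings were within 1.5 times the main one and 11 were not. The 63 include counts that were 0 under every setting, and values given below whose direction between conditions turned. H3K4me3 genes in knockdown alone numbered 1 in place of 2 with a window of 500 bp, which loses ELAVL3, and with 5′ ends only, over the 9 genes with a strand. MBNL2 kept its state in every setting run. With 5′ ends only, CELF2 had no Pol II gene-end peak. With peaks of the 2 lists required to overlap by 50% of each, 8 genes in place of 9 shared a Pol II gene-end peak. The gene lost was ELAVL3. Control Pol II body peaks numbered 40 in place of 61 without those of the minimal width. CLIP peaks in knockdown numbered 1 at a -log10 p of at least 10 and 0 at 10 or more reads. In control they numbered 3 and 6 under those rules, 9 when adjoining peaks were merged, and 2 when the control list was limited to the length of the knockdown list, fewer than the 3 in knockdown. H3K4me3 body peaks numbered 16 in knockdown and 17 in control with peaks joined, in place of 23 in knockdown and 20 in control. The median Pol II width ratio was 0.973 with summed widths, in place of 1.14. Within 1 kb in place of overlap, 2 knockdown CLIP peaks were at Pol II and 3 control CLIP peaks at H3K4me3. Joining peaks under 1 kb apart gave Pol II width ratios of 0.356 at CELF1, 0.322 at ELAVL3 and 2.48 at PTBP1, and summed widths gave 0.829 at ELAVL3. The direction at ELAVL3 and PTBP1 thus depends on how peaks are divided. Covered length was given other settings chosen after seeing the data. The H3K4me3 ratio of CELF2 was 1.06 with peaks joined, in place of 0.965, so its direction turned. MBNL1 ranked first without peaks of the minimal width and with peaks joined, except that its control Pol II ranked 2nd when joined (121899 bp). No paired analysis was possible because each list pools both replicates, and for the same reason no replicate could be left out. Depth and replicate spread are unknown.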

Other observations

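Among 27 further splicing regulators, 25 had an H3K4me3 gene-end peak in both conditions, and 2 had none in either, beside 66.6% and 32.0% of all genes. Pol II was at a gene end of 17 in both conditions and of 4 in knockdown alone, beside 57.6% of all genes in both and 3.97% in knockdown alone. The 4 were RBM47 (927 bp), KHDRBS2 (912 bp), RBM24 and SRRM3, a regulator of neuronal microexons (both of the minimal width), and none of the 27 had Pol II in control alone.

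QKI5 CLIP listed none of the 27 in knockdown and 7 in control. Of all 20037 genes, 12.3% were listed in control alone, 0.828% in knockdown alone and 0.923% in both. MSI2, a Musashi RNA-binding protein of blood progenitors and leukaemia, had 11 control peaks, with at most 11 reads each. RBM20, a splicing regulator of titin in heart muscle, had 4, and no Pol II gene-end peak in either list. RALY and RAVER1 had 2 each, and MATR3, RAVER2 and QKI itself had 1 each. Both marks were at a gene end of 6 of the 7 in both conditions.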
